A study of Sus scrofa with 22 samples.

Results

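The nuclear genes of oxidative phosphorylation were followed through pig foliate papillae, the taste-bud-bearing folds at the side of the tongue, and the organoids grown from them. All entries of the deposited count tables whose symbols name a subunit of a respiratory complex (NDUFA, NDUFB, NDUFC, NDUFS, NDUFV and NDUFAB, SDHA to SDHD, UQCR, CYC1, COX4 to COX8 and ATP5) were taken by name, which gave 69 of 27376 genes. They comprised 37 subunits of complex I, 4 of complex II, 2 of complex III, 9 of complex IV, 15 of complex V and 2 further ATP5-named proteins, ATP5S and ATP5SL. NDUFA4 was placed with complex IV, where its protein sits. Further subunits, among them COX4I1, COX6A2 and COX8A, were not analysed here.

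RNA-seq libraries came from papillae of 5 pigs, each with its own organoid culture at passage 1, and from organoids in a pair of medium experiments with 3 libraries in each of 4 groups. All passage 1 organoids were grown with FGF10 at 100 ng/ml. LPM, a medium the labels do not spell out, held FGF10 at 100 ng/ml with EGF, FGF2, R-Spondin-2, Noggin, human SHH, Wnt3a, insulin, prostaglandin E2, forskolin, nicotinamide, N-acetyl-cysteine and small-molecule inhibitors of ROCK, GSK3, p38 and the TGF-beta receptor. The first medium experiment compared LPM with LPM lacking FGF10, and the second compared LPM with organoids moved from LPM to CQ, also not spelled out, at day 10 and kept there until day 16 or 17. The labels call the organoids of the medium experiments a foliate cell line and do not say whether the libraries came from different pigs; no age, sex or strain is given. Papilla RNA was extracted with another kit and without a DNase step, so tissue against culture and the extraction cannot be told apart, nor can CQ and the later days of culture. P-values measure the spread between these libraries, and in bulk RNA fewer cells of a type and less RNA per cell cannot be told apart.

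Library totals ran from 14667093 to 27767229 counted read pairs, and the 69 genes together took 0.347% to 0.818% of them. The papillae carried a variable amount of skeletal muscle RNA: the summed level of 20 of 21 muscle markers was 2115, 472, 13459, 3428 and 4702 CPM (counts scaled to a common library size, not to gene length) in papillae 1 to 5 and 6.47 to 11.3 CPM in the passage 1 organoids. Fibroblast markers likewise summed to 1850 to 6898 CPM in papillae and 0.778 to 3.12 CPM in organoids. Nerve and Schwann cell markers summed to 250.3 to 363 CPM in papillae and 0.451 to 1.54 CPM in organoids, and endothelial markers to 326 to 507 CPM and 20.98 to 114 CPM. Of the endothelial markers PECAM1, CDH5, VWF and CLDN5 were called lower in organoids (adjusted p under 0.05, edgeR). KDR, at means of 25.9 and 47.3 CPM, was not called. Immune sums overlapped, at 58.1 to 370 CPM in papillae and 29.9 to 98.6 CPM in organoids. Among them CD68 was called higher, PTPRC, CD3E and LYZ lower, and CD79A and CD14 neither. Summed taste cell markers were lower in organoids, at 42.5 to 173 CPM in papillae and 7.01 to 19.5 CPM in organoids. TRPM5, PLCB2 and ENTPD2 were called lower, and GNAT3 and PKD2L1 were not called. Of 6 epithelial markers 5 (EPCAM, CDH1, KRT5, KRT8 and TP63) were measured, and their sum was high in every library, at 7721 to 10580 CPM in papillae and 4972 to 6909 CPM in passage 1 organoids. The markers in this sum moved in both directions. EPCAM (log2 fold change 1.87), CDH1 (1.51) and KRT8 (2.66) were called higher in organoids, and KRT5 (-2.27) and TP63 (-0.87) lower. KRT5 made up most of the papilla sum, with means of 8173 CPM in papillae and 1691 CPM in organoids. The part of these cell types in the subunit differences was not tested. Papilla 3 had the most muscle RNA, and its values stand apart for several complex I and IV genes below.

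Oxidative phosphorylation passes electrons from NADH through complex I, or from succinate through complex II, to ubiquinone, then through complex III to cytochrome c and through complex IV to oxygen. Complexes I, III and IV pump protons across the inner mitochondrial membrane, and complex V, the ATP synthase, lets them flow back through its rotating c-ring to make ATP. A few catalytic subunits are encoded in mitochondrial DNA, and all the others, including all of complex II, in the nucleus. Some nuclear subunits of complex IV exist as a heart and skeletal muscle form and a form found in most other tissues.

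Levels were compared per transcript length, as TPM (length-scaled counts brought to a common total in each library). Subunits of complex V and small subunits of complex IV were at the top in each group. In papillae the highest means belonged to ATP5B at 285 ± 41.3 TPM (SD, n = 5), COX5B at 269 ± 86.4 TPM, COX6A1 at 249 ± 54.8 TPM and ATP5A1 at 233 ± 56.3 TPM, neighbours whose spreads overlapped. In passage 1 organoids COX6A1 led at 704 ± 88.5 TPM (SD, n = 5), followed by ATP5A1 at 611 ± 191 TPM, COX5B at 608 ± 191 TPM and ATP5B at 535 ± 183 TPM, again with overlapping spreads. In LPM of the FGF10 experiment ATP5A1 (544 ± 8.54 TPM, n = 3) stood above COX6A1 (495 ± 18.1 TPM) and ATP5B (440 ± 14.2 TPM) by more than their SDs. LPM of the CQ experiment had COX6C first at 879 ± 131 TPM, then ATP5O at 709 ± 57.7 TPM (n = 3), and CQ had ATP5A1 at 684 ± 42.2 TPM, COX6C at 665 ± 93.9 TPM and COX6A1 at 647 ± 43.6 TPM. At the other end, ATP5S, a small soluble factor named after the synthase, was the lowest gene of the set in all 6 groups apart from COX8H in organoids, from 5.19 ± 1.47 TPM in papillae to 23.5 ± 1.79 TPM in LPM of the CQ experiment. The median over the 69 genes was 78.0 TPM in papillae and 134 TPM in passage 1 organoids. TPM and CPM scale the libraries differently, and in CPM these medians were 53.3 and 60.8. Changes between groups are therefore taken from the fits below and not from TPM. Both media of the FGF10 experiment gave nearly one median, 110 TPM with and 108 TPM without FGF10, and the CQ experiment gave 143 TPM in LPM and 152 TPM in CQ.

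The first comparison asked how organoids at passage 1 differ from the papillae they were grown from. More of the nuclear subunit genes were higher in organoids than lower: 29 were called higher, 6 lower and 34 neither by edgeR's quasi-likelihood test (adjusted p under 0.05 over all genes tested). Among all 16311 genes tested 67.5% were called, 32.4% higher and 35.1% lower, against 42.0% higher and 8.70% lower for the subunits. Their median log2 fold change was 0.29, beside -0.01 for all genes. For 18 subunits every organoid lay above every papilla and for 4 every organoid lay below, where 24.5% and 29.6% of all genes did so (54.1% in either direction). Without papilla 3 the counts were 35 higher and 3 lower, and without organoid 2 they were 29 and 3. With the replicate block, which pairs each papilla with the organoids of the same pig, 25 were higher and 4 lower.

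**Figure D1:**
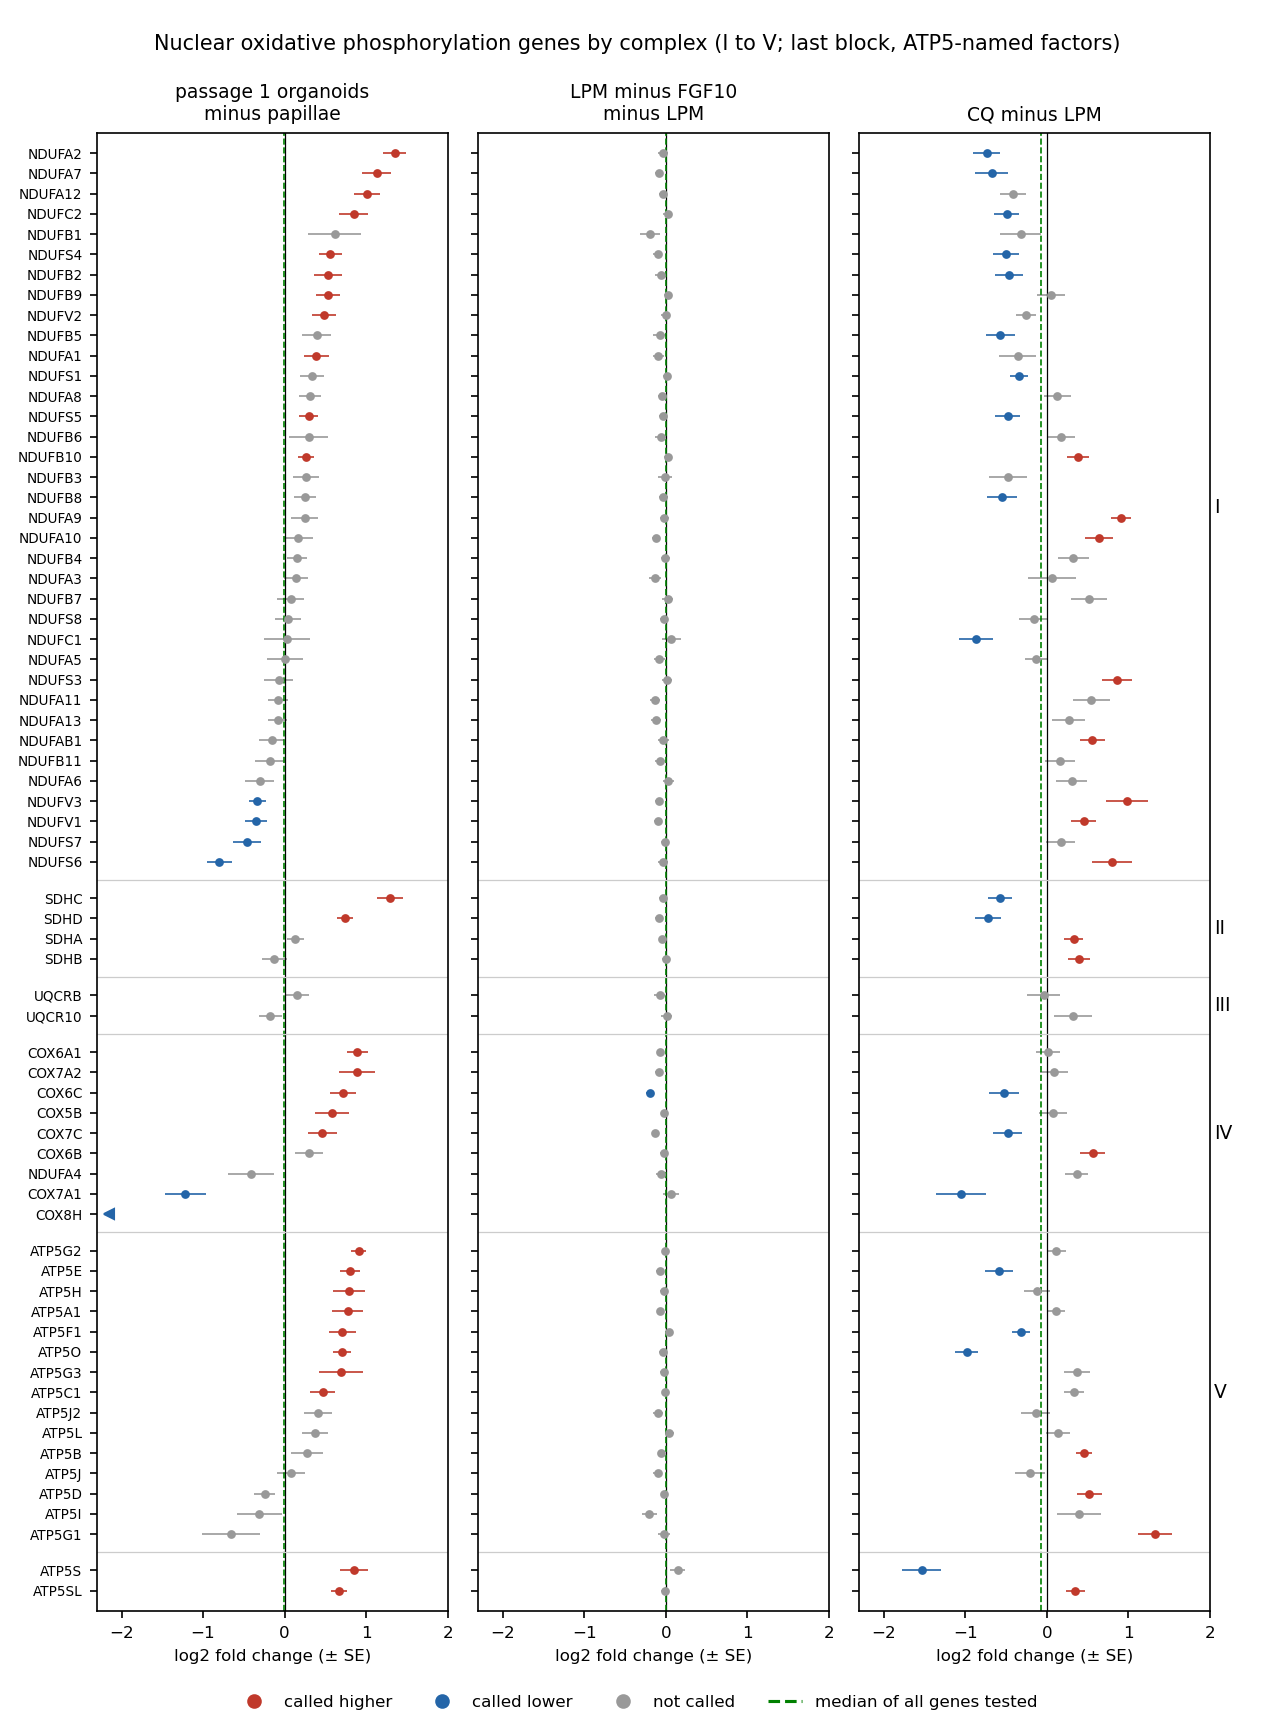
Log2 fold change of the nuclear subunit genes, 1 of the 69 not drawn, by complex, in the 3 comparisons (points with bars of 1 SE, red called higher, blue called lower, grey not called; dashed line, median of all genes; the arrow marks COX8H, which lies off the axis). Of 69 genes, 29 were called higher and 6 lower in passage 1 organoids, 0 and 1 without FGF10, and 15 and 19 in CQ.

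Short transcripts were shifted upward as a class in this comparison, and the subunit genes are short (median exonic length 843 bases). Over all genes the median log2 fold change was 0.22 under 500 bases, 0.27 from 500 to 1000 bases and 0.12 from 1000 to 2000 bases, but -0.01 from 2000 to 4000 bases, -0.07 from 4000 to 8000 bases and -0.19 above 8000 bases. The subunits of 500 to 1000 bases, 35 of the 69, had a median of 0.29, close to that of all genes of their length. The 10 subunits under 500 bases were likewise close, at 0.22. Longer subunits lay above all genes of their length. The 15 of 1000 to 2000 bases had a median of 0.25, the 8 of 2000 to 4000 bases 0.42, and the 1 of 4000 to 8000 bases was at 0.91. When a smooth trend with gene length was removed, 20 subunits were higher and 15 lower, the median over subunits fell to 0.03, and 26 of the 35 calls were kept. By complex, the counts higher and lower after this correction were 6 and 8 in complex I, 2 and 1 in complex II, 0 and 1 in complex III, 3 and 2 in complex IV and 7 and 3 in complex V. In complex I the excess of higher over lower calls was thus absent after it. Scaling by library size alone, which raised the median of all genes from -0.01 to 0.28 and the share of higher genes among all called genes from 48.0% to 59.6%, gave 44 subunits higher and 3 lower.

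**Figure D2:**
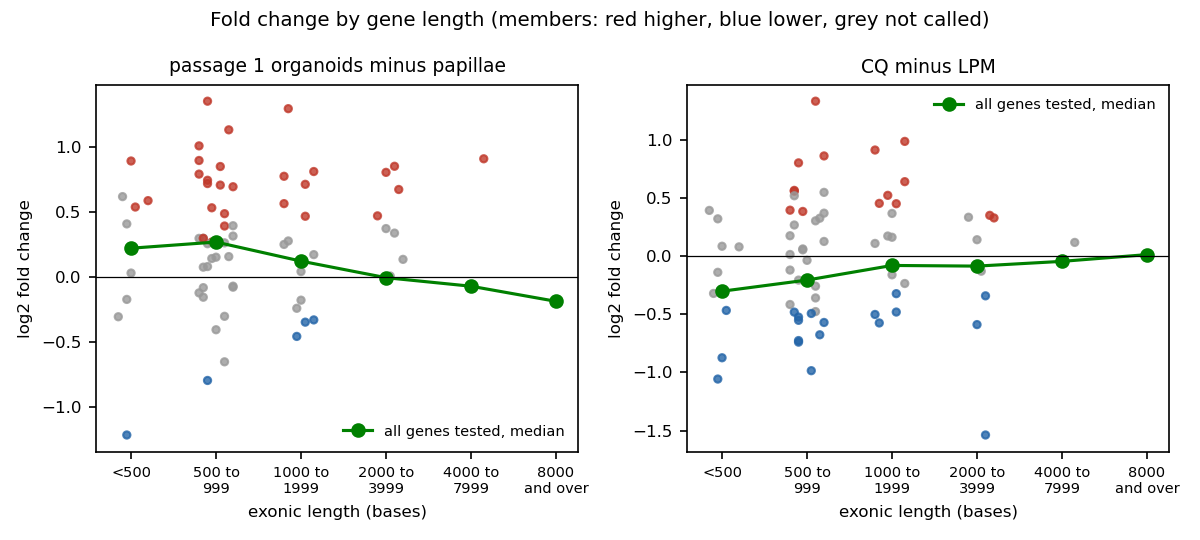
Log2 fold change by exonic length in bases, in the papilla and CQ comparisons, with the median of all genes in each length class as a green line and each subunit except COX8H as a point. In the papilla comparison the line runs from 0.22 under 500 bases to -0.19 above 8000 bases, and in the CQ comparison from -0.30 to 0.01.

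Complex I, the NADH dehydrogenase, had 12 of 37 subunits higher and 4 lower in organoids (median log2 0.25). The share called higher, 32.4%, was that of all genes, while 10.8% were lower against 35.1% of all genes. NDUFA2, an accessory subunit of the NADH-oxidizing arm of complex I, rose most. Its level was 19.01, 22.98, 30.4, 25.1 and 26.6 CPM in papillae 1 to 5 and 63.0, 56.2, 56.4, 63.1 and 77.6 CPM in organoids of the same pigs. All 5 organoids lay above all 5 papillae, and the log2 fold change was 1.35 (SE 0.14, adjusted p 9.94e-06, edgeR) or 1.02 after the length correction. NDUFA2 lies on chromosome 2 from 142359000 to 142361126 (build Sscrofa11.1, as are all positions here). NDUFA7 and NDUFA12, further accessory subunits, also passed 2-fold, with log2 fold changes of 1.13 and 1.01 and no overlap between the groups. NDUFB10, a membrane-arm subunit, was the smallest rise called, at log2 0.27 (adjusted p 0.0292 in edgeR), lost its call with the replicate block and turned to -0.024 after the length correction.

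The 4 complex I genes called lower included a pair of core subunits that hold flavin or iron-sulfur centres, NDUFV1 (log2 -0.35) and NDUFS7 (log2 -0.46), and both calls were lost with the replicate block and without papilla 3. NDUFS6, a zinc-binding accessory subunit on chromosome 16 (78993909 to 79000001), had the largest fall in the complex. It was at 76.9, 103.7, 118.8, 84.1 and 83.2 CPM in papillae and 46.1, 59.4, 46.3, 65.2 and 51.3 CPM in organoids. No organoid reached the lowest papilla (log2 -0.80, SE 0.15, adjusted p 0.000668 in edgeR), and the fall was 0.69 without papilla 3. NDUFV3, an accessory subunit of the NADH-oxidizing arm, fell from 54.8 ± 3.10 to 43.5 ± 5.72 CPM (SD, n = 5 each; adjusted p 0.0184 in edgeR), but its adjusted p was 0.0513 without papilla 3. Over the 7 core subunits 2 were higher and 2 lower, and over the 30 accessory subunits 10 were higher and 2 lower. NDUFAB1, the mitochondrial acyl carrier protein that is also a complex I subunit, had a log2 difference of -0.16 and was not called (adjusted p 0.381), but was called lower after the length correction (-0.48, adjusted p 0.0104 in edgeR).

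Complex II, succinate dehydrogenase, separated into its membrane anchors, which rose, and its catalytic subunits, which were not called. SDHC, an anchor that helps bind haem and ubiquinone (chromosome 4, 89135410 to 89169164), was at 46.3, 43.1, 44.6, 40.7 and 48.2 CPM in papillae and 81.5, 113, 86.2, 118 and 147 CPM in organoids. SDHD, the other anchor (chromosome 9, 39790654 to 39803602), was at 54.6, 61.7, 69.7, 56.5 and 66.1 CPM in papillae and 103.5, 102.8, 97.0, 102 and 110 CPM in organoids. Neither anchor showed any overlap between the groups, with log2 fold changes of 1.29 for SDHC (SE 0.16, adjusted p 2.82e-05) and 0.74 for SDHD (SE 0.098, adjusted p 4.86e-05, edgeR). SDHA, the flavoprotein that oxidizes succinate, had means of 145 ± 16.9 and 159 ± 7.39 CPM (SD, n = 5 each; log2 0.13, adjusted p 0.285 in edgeR). SDHB, the iron-sulfur subunit, had means of 53.3 ± 11.2 and 48.9 ± 6.65 CPM (log2 -0.12, adjusted p 0.494 in edgeR). Both anchors were also called under the length correction, at log2 1.11 for SDHC and 0.48 for SDHD. SDHB was then called lower, at -0.41 (adjusted p 0.0262 in edgeR). Whether the anchors differed in fold change from the catalytic subunits was not tested.

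Complex III was represented by UQCRB, a ubiquinone-binding subunit, and UQCR10, and neither was called. UQCR10, the more abundant by CPM, was at 41.2 ± 8.11 CPM in papillae and 36.5 ± 3.59 CPM in organoids (log2 -0.18, SE 0.14), and UQCRB at 30.3 ± 5.33 and 33.6 ± 5.32 CPM (log2 0.15, SE 0.15; SD, n = 5 each). After the length correction UQCR10 was called lower, at -0.56 (adjusted p 0.00251 in edgeR).

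Complex IV, cytochrome c oxidase, had 5 of 9 genes higher and 2 lower (median log2 0.46). These were 55.6% and 22.2%, against 32.4% and 35.1% of all genes. COX6A1, the general form of a subunit that caps the complex (chromosome 14, 40408600 to 40410810), rose from 93.4, 101.7, 94.7, 89.8 and 109.7 CPM to 182, 151, 176, 174 and 227 CPM. The groups did not overlap (log2 0.89, SE 0.12, adjusted p 6.65e-05, edgeR). COX6C and COX5B, small subunits around the catalytic core, had log2 fold changes of 0.72 and 0.58, and COX7C, another, of 0.46 (adjusted p 0.0371 in edgeR). COX5B lost its call with the replicate block, and both COX5B and COX7C lost theirs after the length correction. NDUFA4 had a log2 difference of -0.41 and COX6B, which faces cytochrome c, of 0.29, and neither was called.

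The muscle form COX7A1 and the general form COX7A2, alternative versions of one subunit, moved apart. COX7A1 (chromosome 6, 45519225 to 45520721) was at 28.5, 25.8, 57.6, 32.9 and 33.7 CPM in papillae and 14.2, 18.2, 11.8, 11.3 and 21.3 CPM in organoids. COX7A2 (chromosome 1, 90696746 to 90703407) was at 35.6, 38.3, 40.2, 37.4 and 40.0 CPM in papillae and 50.0, 58.5, 47.4, 91.7 and 107 CPM in organoids. All organoids were below all papillae for COX7A1 (log2 -1.22, SE 0.25, adjusted p 0.00121) and above them for COX7A2 (log2 0.89, SE 0.22, adjusted p 0.00388, edgeR). After the length correction the difference of COX7A2 was 0.50 (adjusted p 0.0463 in edgeR), and with the replicate block added to it 0.43 and no longer called (adjusted p 0.0740). COX7A1 was called lower in both of these settings. Within each library the log2 ratio of COX7A1 to COX7A2 counts, which does not depend on scaling between libraries, was -0.32, -0.57, 0.52, -0.19 and -0.25 in papillae and -1.82, -1.68, -2.01, -3.02 and -2.33 in organoids. The means differed by -2.01 (exact 2-sided permutation test that leaves the pairing by pig out, p 0.00794, the smallest that 5 against 5 allows), and by -2.13 to -1.80 when any 1 library was left out. Within pigs the ratio was lower in the organoids of 5 of 5, and an exact permutation of the signs of these differences gave a 2-sided p of 0.0625, the smallest that 5 pairs allow, so a paired test could not pass 0.05. The ratio was highest in papilla 3, the papilla with the most muscle RNA, and all organoid libraries of the medium experiments lay between -2.98 and -1.01. The part of muscle RNA in this difference was not tested.

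COX8H, the pig gene for the heart and muscle form of another small complex IV subunit (chromosome 2, 69199 to 70730), was nearly confined to papillae. It had 85, 38, 949, 210 and 156 counts in papillae 1 to 5 (5.25, 1.90, 48.1, 13.3 and 10.4 CPM), and its order over the papillae was that of the summed muscle markers except that papillae 4 and 5 changed places. The part of muscle RNA in its level was not tested. Organoids 1, 2, 4 and 5 had 0 counts and organoid 3 had 4 counts (0.176 CPM). The scaled level over all papillae was 546 times that over all organoids, with a 95% exact interval of 213 to 2008 from 1438 against 4 counts, which covers counting error only. Papilla 3 held 949 of the papilla counts, and without it the ratio was 241 (interval 93.4 to 887). Without organoid 3, which held all the organoid counts, the papillae were at least 603-fold higher (3 counts over the other 4 organoids taken as the floor). The 12 libraries of the medium experiments had 0 counts, which allows up to 0.0434 CPM in LPM and 0.0473 CPM without FGF10, and up to 0.0463 CPM in LPM and 0.0636 CPM in CQ of the CQ experiment (3 counts over each group's summed reads). Among the muscle markers 7 to 9 of 20 were likewise at 0 in the organoids, MYH1, MYH2, MYL1, MYL2 and DES among them, and none was at 0 in any papilla.

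**Figure D3:**
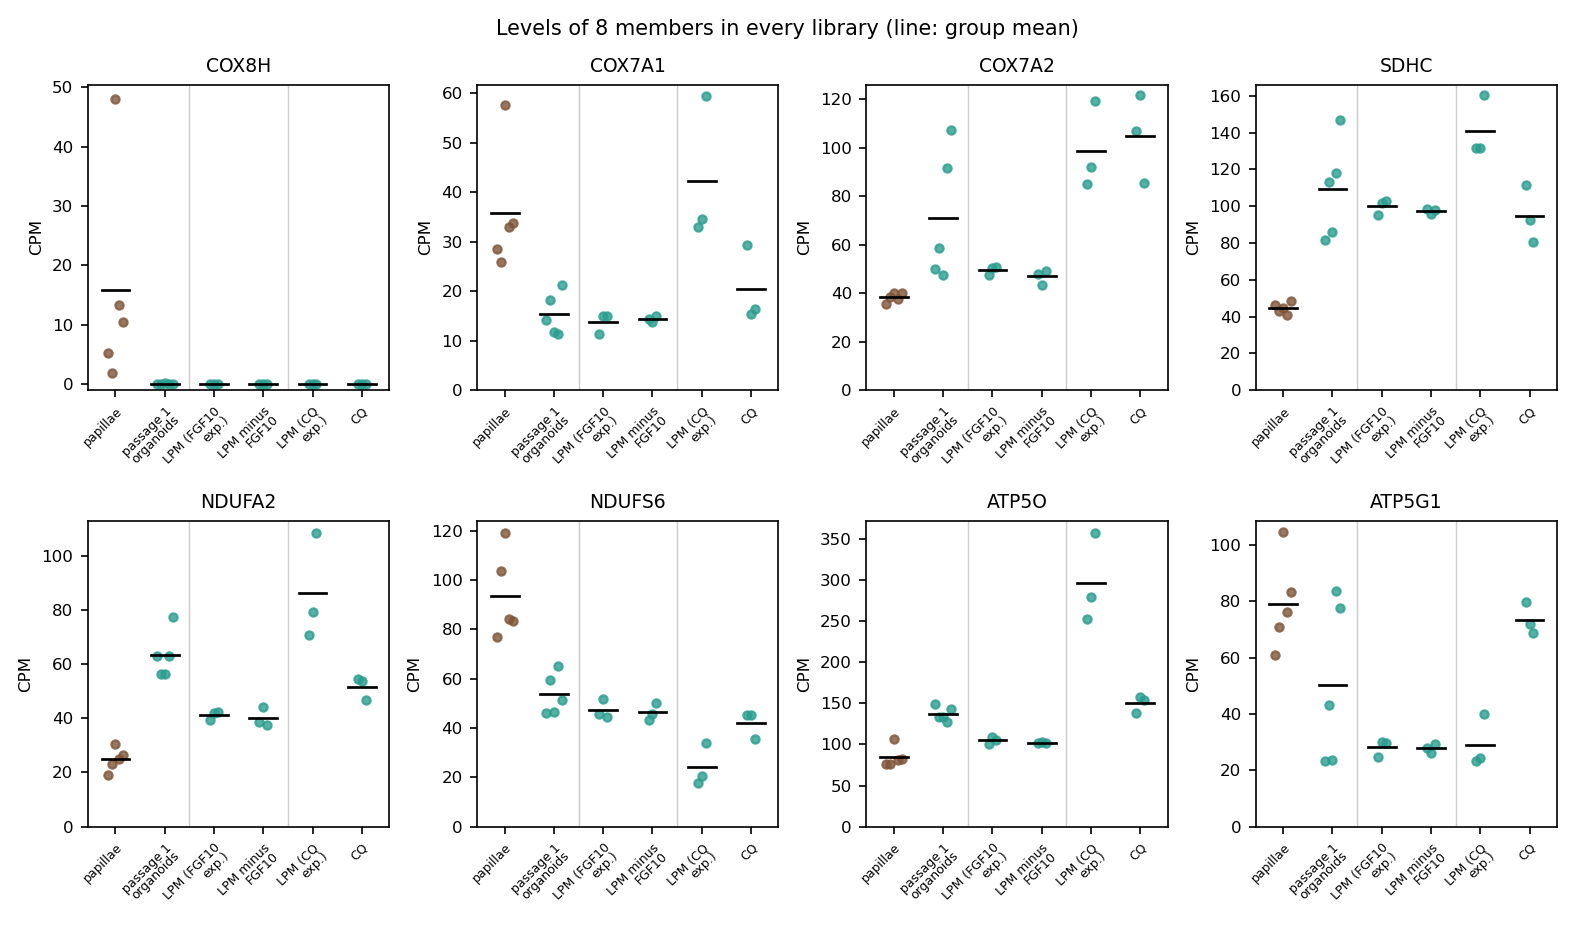
Level in CPM of 8 subunit genes in every library, by group, with a line at each group mean. SDHC and NDUFA2 are higher in all 5 passage 1 organoids than in all 5 papillae, COX7A1 and NDUFS6 are lower, and COX8H is near 0 outside the papillae.

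Complex V, the ATP synthase, had 8 of 15 genes higher and 0 lower by edgeR (10 and 0 at an unadjusted p under 0.05, and 0 lower in DESeq2 and limma-voom as well), with a median log2 fold change of 0.47. The edgeR calls were 53.3% and 0% of its genes, against 32.4% and 35.1% of all genes. After the length correction 7 were higher and 3 lower, ATP5D (log2 -0.43, adjusted p 0.00853), ATP5G1 (-0.94, adjusted p 0.0318) and ATP5I (-0.72, adjusted p 0.0260, edgeR), and these 3 were also called lower with the replicate block added. ATP5G2, one of 3 genes that encode the same c-ring protein (chromosome 5, 18871025 to 18879933), was at 95.4, 84.6, 82.5, 87.9 and 97.6 CPM in papillae and 172, 157, 182, 165 and 164 CPM in organoids. The ranges were far apart, at log2 0.91 (SE 0.096, adjusted p 9.07e-06, edgeR). Its paralogue ATP5G1 had instead 61.0, 71.0, 105, 76.2 and 83.3 CPM in papillae and 23.3, 43.2, 23.7, 83.6 and 77.5 CPM in organoids (log2 -0.66, adjusted p 0.123, not called in edgeR). Organoids 4 and 5 lay inside the papilla range for ATP5G1 and the other organoids below it. The sequences of the 3 c-ring genes were not compared here, so whether reads were shared between them or lost is not known.

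In the head of the synthase, ATP5A1, the alpha subunit, rose from 305 ± 41.0 to 520 ± 141 CPM (SD, n = 5 each; log2 0.77, adjusted p 0.00372 in edgeR) without overlap between the groups. ATP5B, the catalytic beta subunit and the subunit gene with the highest mean CPM in papillae, was at 408, 335, 383, 355 and 419 CPM in papillae and 346, 414, 327, 643 and 569 CPM in organoids. Only organoids 4 and 5 exceeded all papillae, and ATP5B was not called (log2 0.27, adjusted p 0.237 in edgeR). ATP5E, the epsilon subunit of the central stalk, rose with a log2 fold change of 0.80, and ATP5C1, the gamma subunit, had the smallest rise called in the complex, at 0.47 (adjusted p 0.0170 in edgeR). In the peripheral stalk, which holds the head still, 3 of 4 genes rose: ATP5H by 0.79, ATP5F1 by 0.71 and ATP5O, which joins the stalk to the head, by 0.70 on the log2 scale. ATP5H lost its call with the length correction and replicate block together (adjusted p 0.0504 in edgeR). It shares 23.1% of its exonic length with LOC110255971, and ATP5C1 shares 16.9% with LOC110255717. Both of these other genes were called higher too (log2 0.58 and 0.39). Of the small membrane subunits ATP5I, ATP5J2 and ATP5L, with log2 differences of -0.31, 0.41 and 0.37, none was called by edgeR.

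Both ATP5-named factors rose as well. ATP5S was at 8.21, 6.66, 10.8, 6.86 and 7.43 CPM in papillae and 12.97, 16.0, 13.3, 14.5 and 15.3 CPM in organoids (log2 0.85, SE 0.17). ATP5SL, which takes part in complex I assembly despite its name, was at 69.4, 65.0, 72.4, 66.2 and 70.6 CPM in papillae and 120, 100, 119, 96.0 and 111 CPM in organoids (log2 0.67, SE 0.098). The groups did not overlap for either gene.

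Summed within each complex, the papillae had 1434, 1454, 1961, 1457 and 1586 CPM of complex I subunits and the organoids 1618, 1723, 1580, 2128 and 2114 CPM, with overlap through papillae 3 and 5. Complex II sums were 282, 276, 356, 290 and 319 CPM in papillae and 390, 416, 381, 445 and 469 CPM in organoids, with no overlap. Complex V sums were 1708, 1655, 2085, 1720 and 1873 CPM in papillae and 2057, 2263, 2006, 3163 and 3009 CPM in organoids, where organoids 4 and 5 were the highest and organoids 1 and 3 reached no further than papilla 3. Complex IV sums overlapped through papilla 3 alone (799 CPM, against 664 to 1015 CPM in organoids), and complex III sums overlapped throughout, at 59.9 to 92.3 and 60.3 to 81.0 CPM.

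**Figure D4:**
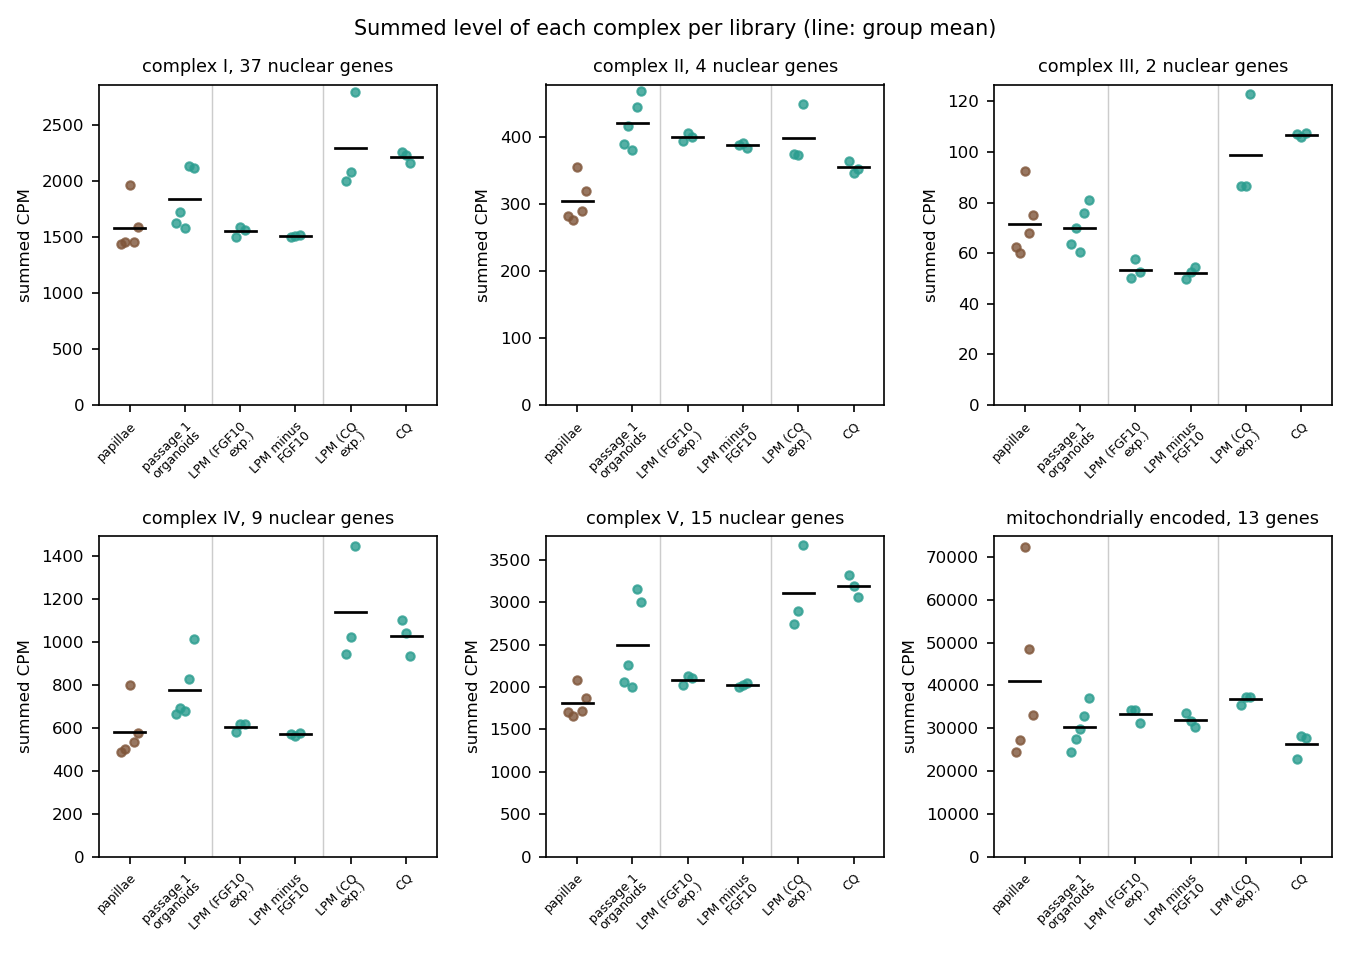
Summed CPM of the nuclear subunits of each complex in every library, by group, with a line at each group mean; the last panel sums the 13 mitochondrially encoded genes. Complex II sums of the passage 1 organoids (381 to 469 CPM) lie above all papillae (276 to 356 CPM), while papilla 3 stands above the other papillae for complexes I and IV.

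In the main fit the mitochondrially encoded subunits of the same complexes went the other way from the nuclear ones in organoids. Of 13 genes 2 were higher and 8 lower (median log2 -0.76). These were 15.4% and 61.5%, against 32.4% and 35.1% of all genes. The nuclear subunits had 20 higher and 15 lower after the length correction, so the contrast depends on the setting. CYTB, the haem-bearing core of complex III, fell by 1.22 and ND2, a proton-pumping core subunit of complex I, by 1.12 on the log2 scale, while ND5 and ND6 of complex I rose by 1.25 and 1.23. Their summed level was 24381, 27238, 72423, 48500 and 33107 CPM in papillae 1 to 5, so that papilla 3 was highest here too, and 24528 to 37135 CPM in organoids. The number lower was 4 without papilla 3, papilla 4 or organoid 1, 5 without organoid 2 or organoid 3, 5 with the replicate block and 2 with library size scaling alone.

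The other nuclear genes around oxidative phosphorylation differed by list. Over all genes tested 32.4% were called higher and 35.1% lower. The higher shares of the assembly factors (30.3%), citric acid cycle (27.8%) and biogenesis regulators (29.4%) lay below that of all genes. Of 33 assembly factors 10 were higher and 2 lower (median log2 0.22), among them LRPPRC, which stabilizes mitochondrial mRNA (1.68), and TMEM126B, a complex I assembly factor (1.24), the 2 with the smallest p among those higher. Of 77 mitochondrial ribosomal proteins 43 were higher and 3 lower (median log2 0.51). Of 11 genes of lactate and pyruvate routing 6 were higher and 3 lower, with the lactate exporter SLC16A3 at log2 4.78 and lactate dehydrogenase LDHA at 2.702, against MPC1, a pyruvate carrier subunit, at -1.23 and the kinase PDK4, which switches off pyruvate dehydrogenase, at -2.43. Fatty acid oxidation had 0 of 12 genes higher (0 at an unadjusted p under 0.05, and 0 in DESeq2 and limma-voom) and 7 lower, with CPT1B, the muscle form of the carnitine transferase, at -3.77 and the dehydrogenase ACADM at -1.95. The citric acid cycle list had 5 of 18 higher, such as SUCLG2 (1.76), and 4 lower, such as OGDH (-0.57). Electron carriers and exchangers had 9 of 22 higher, such as the outer membrane channel VDAC2 (1.28), and 6 lower, such as the proton carrier UCP2 (-3.79). Biogenesis regulators had 5 of 17 higher, with the mitochondrial DNA packaging factor TFAM at 1.64, and 5 lower, with the coactivator PPRC1 at -1.28.

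**Figure D5:**
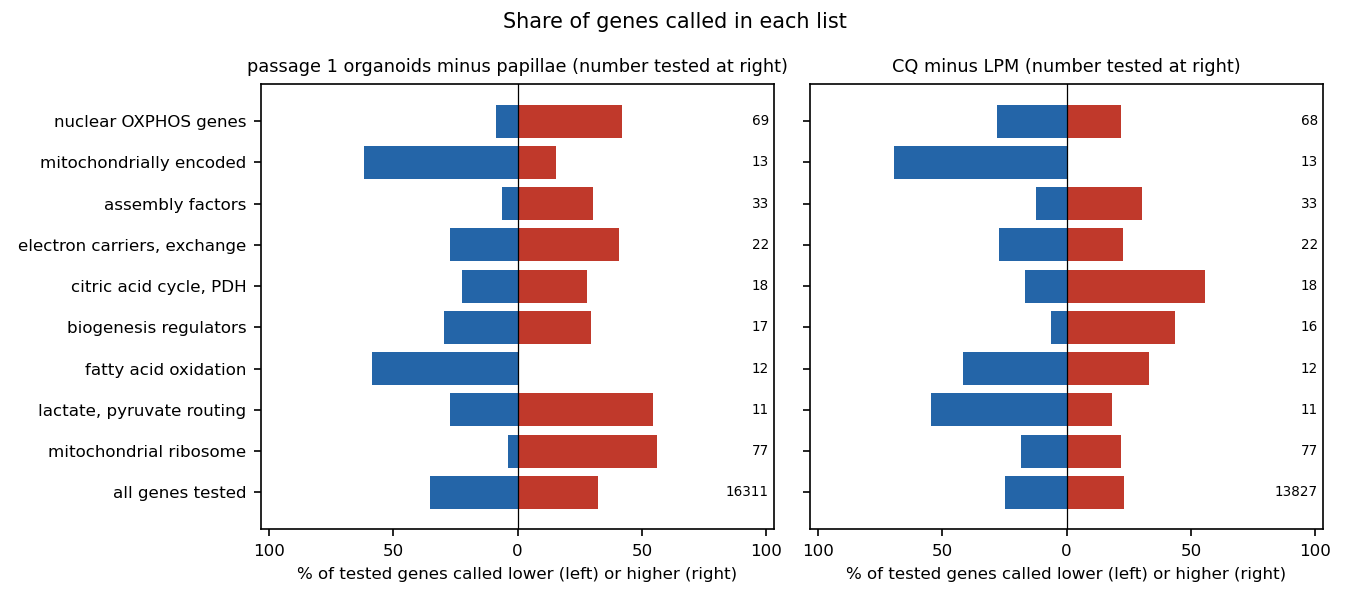
Percent of the tested genes of each list called higher (right) or lower (left), in the papilla and CQ comparisons, with the number tested at the edge. In passage 1 organoids 43 of 77 mitochondrial ribosomal proteins are higher and 3 lower, and 8 of 13 mitochondrially encoded subunits are lower. Of all genes tested there, 32.4% are higher and 35.1% lower.

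Removing FGF10 from LPM, which asked what this growth factor adds to the medium, left the nuclear subunits almost where they were. Of 68 tested, 0 were called higher and 1 lower by edgeR (0 and 6 at an unadjusted p under 0.05, and 0 higher in DESeq2 and limma-voom), where 1.78% of all 14262 genes were called, 0.582% higher and 1.20% lower. All log2 differences lay between -0.20 and 0.15, 15 above and 53 below 0, with a median of -0.03 (0.00 for all genes). COX8H, at 0 counts in all 6 libraries, was the only one not tested. For 9 subunits all libraries without FGF10 lay below all libraries with it and for 0 above, where 8.55% and 8.09% of all genes did so (16.6% in either direction).

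The 1 call was COX6C, a small complex IV subunit on chromosome 4 (37074619 to 37089364). It was at 92.0, 92.6 and 90.7 CPM in LPM and 84.5, 78.7 and 77.0 CPM without FGF10. The ranges were apart, but the difference was small (log2 -0.20, SE 0.045, adjusted p 0.0164 in edgeR). The adjusted p was 0.0523 without LPM replicate 1, 0.105 without LPM replicate 2, 0.0516 without minus-FGF10 replicate 2, 0.0794 without minus-FGF10 replicate 3 and 0.0686 after the length correction, and ran from 0.00274 to 0.105 over all settings tried. Of its exonic length 25.3% is shared with VPS13B, which had a log2 difference of -0.05, and the counting did not use strand.

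None of the other subunits passed in edgeR, and the most abundant ones moved little. ATP5A1 was at 506, 501 and 500 CPM in LPM and 481, 488 and 466 CPM without FGF10, ranges that did not overlap (log2 -0.07, SE 0.036, adjusted p 0.454 in edgeR). COX7C, at 107 ± 3.55 and 97.8 ± 4.13 CPM (SD, n = 3 each), differed by -0.13 (adjusted p 0.174 in edgeR). SDHA, SDHB, SDHC and SDHD had log2 differences of -0.04, 0.00, -0.03 and -0.08, COX6A1 of -0.07, and UQCR10 of 0.01. The pair COX7A1 and COX7A2 kept log2 count ratios of -2.07, -1.75 and -1.77 in LPM and -1.74, -1.65 and -1.73 without FGF10. The mitochondrially encoded list had 0 of 13 genes called in either direction by edgeR (0 higher and 5 lower at an unadjusted p under 0.05; 0 and 1 in DESeq2, 0 and 0 in limma-voom), with a median of -0.06, and the 7 other lists had 0 calls in edgeR, DESeq2 and limma-voom. At an unadjusted p under 0.05 these 7 lists had between 0 and 2 genes higher and 0 and 3 lower in edgeR. Their most abundant genes, among them LRPPRC (log2 0.03), OGDH (-0.06), ECHS1, a fatty acid oxidation enzyme (-0.09), and LDHA (-0.06), were not called.

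Moving organoids from LPM to CQ for the last days of culture was accompanied by changes in both directions. Of 68 subunits tested, 15 were called higher in CQ, 19 lower and 34 neither, where 47.9% of all 13827 genes were called, 23.1% higher and 24.8% lower. The median log2 fold change was 0.07 (-0.07 for all genes). In 17 subunits all CQ libraries lay above all LPM libraries and in 21 below, where 28.2% and 32.9% of all genes did so (61.1% in either direction). LPM replicate 3 had the highest summed level of the subunits (8619 CPM, against 6264 and 6586 CPM in the other LPM libraries and 7303, 7047 and 6735 CPM in CQ). Leaving it out gave 24 higher and 12 lower. The counts were 5 and 19 without LPM replicate 1, 4 and 13 without LPM replicate 2, 7 and 9 without CQ replicate 1, 10 and 12 without CQ replicate 2, and 12 and 7 without CQ replicate 3, so the numbers are loosely determined with 3 libraries a group. Cell type markers moved in this comparison too. The summed epithelial markers were at 4577 to 5223 CPM in LPM and 5277 to 5719 CPM in CQ, and within that list TP63, a basal cell factor, fell by 2.29 and EPCAM by 1.01 on the log2 scale, KRT8 rose by 0.69, and CDH1 and KRT5 were not called. Endothelial markers summed to 12.0 to 17.6 CPM in LPM and 1.52 to 3.34 CPM in CQ, where KDR was at 0 counts in each library. Immune markers summed to 55.0 to 65.8 CPM and 26.0 to 32.1 CPM, and taste cell markers to 7.74 to 8.79 CPM and 3.29 to 6.72 CPM. Of the immune markers CD68 and CD14 were called lower and CD79A higher. Among the taste cell markers only PKD2L1 was called, lower in CQ, with means of 3.04 CPM in LPM and 0.126 CPM in CQ. TRPM5 and ENTPD2 were not called, and PLCB2 and GNAT3 were not tested. The part of these shifts in the subunit levels was not tested. In all settings tried 10 calls were made: ATP5B, ATP5G1, NDUFA9 and NDUFS3 higher, and ATP5O, ATP5S, NDUFA2, NDUFC1, SDHC and SDHD lower.

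Within complex I 8 of 37 subunits were higher and 10 lower (21.6% and 27.0%, against 23.1% and 24.8% of all genes). NDUFV3 had the largest rise, from 26.5, 25.5 and 32.0 CPM in LPM to 67.2, 33.3 and 65.8 CPM in CQ, and CQ replicate 2 lay just above the LPM range (log2 0.98, SE 0.25, adjusted p 0.0111 in edgeR; 0.0502 without LPM replicate 2). NDUFA9, an accessory subunit that binds a nucleotide cofactor, rose more evenly, from 37.4, 39.1 and 45.5 CPM to 76.3, 81.4 and 71.6 CPM (log2 0.91, SE 0.13). NDUFS3, a core subunit of the arm that carries electrons to ubiquinone, rose from 30.6, 31.2 and 46.8 CPM to 64.7, 58.6 and 74.1 CPM (log2 0.86, SE 0.19). Of its exonic length 16.5% is shared with KBTBD4, which was called higher too (log2 0.53). NDUFAB1 also rose (log2 0.56), and NDUFB10 had the smallest rise called (0.38, adjusted p 0.0404 in edgeR). NDUFC1, a small membrane-arm subunit, fell most, from 30.6, 30.6 and 40.2 CPM to 13.7, 21.9 and 19.7 CPM (log2 -0.87, SE 0.21, adjusted p 0.00766 in edgeR). NDUFA2 fell from 70.7, 79.4 and 108 CPM to 54.4, 53.7 and 46.8 CPM (log2 -0.74). NDUFS1, the largest core subunit, had the smallest fall called, from 107, 106 and 105 CPM to 81.7, 94.1 and 75.3 CPM (log2 -0.34, adjusted p 0.0357 in edgeR).

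In complex II the catalytic subunits were called higher and the anchors lower in CQ. Whether the anchors differed in fold change from the catalytic subunits was not tested here either. SDHC was at 131, 132 and 160 CPM in LPM and 111, 92.4 and 80.5 CPM in CQ, and SDHD at 95.9, 98.4 and 111 CPM in LPM and 55.9, 51.9 and 76.9 CPM in CQ. Neither overlapped (SDHC log2 -0.57, SE 0.15, adjusted p 0.0103; SDHD log2 -0.73, SE 0.16, adjusted p 0.00521, edgeR). SDHA (chromosome 16, 79838442 to 79862956) was at 96.2, 95.2 and 116 CPM in LPM and 132, 134 and 121 CPM in CQ, and SDHB (chromosome 6, 75648362 to 75678111) at 50.6, 47.2 and 61.5 CPM in LPM and 66.1, 68.8 and 74.5 CPM in CQ. Both rose just past the threshold (SDHA log2 0.33, adjusted p 0.0454; SDHB log2 0.39, adjusted p 0.0375, edgeR). Leaving out any library other than LPM replicate 3 ended both of these calls, with adjusted p up to 0.221 for SDHA and 0.199 for SDHB over all settings tried. Both falls were called in all settings tried.

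UQCRB and UQCR10 of complex III were not called in CQ (log2 -0.04, SE 0.20, and 0.32, SE 0.23; edgeR), with overlapping ranges.

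In complex IV 1 of 8 genes was higher and 3 lower (12.5% and 37.5%, against 23.1% and 24.8% of all genes). COX6B rose from 61.1, 65.9 and 90.6 CPM in LPM to 110, 104 and 108 CPM in CQ (log2 0.56, adjusted p 0.0147 in edgeR). COX7A1 was at 32.9, 34.6 and 59.3 CPM in LPM and 29.2, 15.4 and 16.5 CPM in CQ, so that all CQ libraries lay below all LPM libraries (log2 -1.06, SE 0.30, adjusted p 0.0186 in edgeR). The call was lost without LPM replicate 3 (log2 -0.75, adjusted p 0.0648), CQ replicate 2 or CQ replicate 3. COX7A2 had a log2 difference of 0.08, and the log2 ratio of COX7A1 to COX7A2 counts was -1.37, -1.41 and -1.01 in LPM and -1.87, -2.98 and -2.37 in CQ, without overlap. COX6C fell (log2 -0.52), and COX7C fell from 213, 239 and 350 CPM to 203, 185 and 187 CPM (log2 -0.48, adjusted p 0.0478 in edgeR), a call lost without any 1 of the CQ libraries or LPM replicate 2. COX6A1 (log2 0.01) and NDUFA4 (log2 0.37, adjusted p 0.0592) were not called.

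In complex V 3 of 15 genes were higher and 3 lower (20% each, against 23.1% and 24.8% of all genes). Of the 5 genes of the head and central stalk 2 were higher and 1 lower, of the 3 c-ring genes 1 was higher, and of the 4 peripheral stalk genes 2 were lower. ATP5G1 (chromosome 12, 25110540 to 25113481) rose most of all subunits, from 23.4, 24.3 and 39.8 CPM in LPM to 79.7, 72.0 and 68.7 CPM in CQ (log2 1.33, SE 0.21, adjusted p 0.000814 in edgeR). ATP5G2 and ATP5G3, the other c-ring genes, had log2 differences of 0.12 and 0.37 and were not called. ATP5B (chromosome 5, 21984750 to 21992393) rose from 425, 409 and 484 CPM to 620, 608 and 574 CPM (log2 0.45, SE 0.097, adjusted p 0.00449 in edgeR), while ATP5A1, its partner in the head, was at 624 ± 71.0 and 673 ± 47.7 CPM (SD, n = 3 each; log2 0.11, not called). ATP5O (chromosome 13, 197509331 to 197519530) fell from 253, 280 and 358 CPM to 139, 158 and 154 CPM (log2 -0.98, SE 0.14, adjusted p 0.000455 in edgeR). All 3 CQ libraries lay far below the LPM range. ATP5F1, the b subunit of the stalk, had the smallest fall called, from 254, 274 and 317 CPM to 234, 230 and 212 CPM (log2 -0.32, adjusted p 0.0373 in edgeR), and shares 19.3% of its exonic length with WDR77, whose log2 fold change was 0.82. In the central stalk ATP5D was higher (log2 0.52) and ATP5E lower (-0.59). ATP5S (chromosome 1, 180069157 to 180081332) fell from 29.4, 27.3 and 31.2 CPM to 10.2, 13.1 and 6.94 CPM (log2 -1.54, SE 0.24), and ATP5SL rose from 94.2 ± 3.07 to 120 ± 12.8 CPM (log2 0.35, adjusted p 0.0298 in edgeR).

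Short transcripts as a class were lower in CQ, with a median log2 fold change over all genes of -0.30 under 500 bases and 0.01 above 8000 bases. After the length correction 24 subunits were higher and 17 lower and the median was 0.16. Of the 34 calls 32 were kept, COX6C and NDUFB2 being lost.

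The subunits called in both the papilla and the CQ comparison, which share no library, were mostly called in opposite directions. Of 68 subunits tested in both, 20 were called in both, which is 58.8% of the 34 called in each. Over all genes the calls in both were 48.9% of the papilla calls and 64.5% of the CQ calls, to either side of that share. Of the 20 subunits 17 had opposite signs (85.0%), where 60.0% of the 4189 genes called in both comparisons over the whole table did so. In 14 the level was higher in passage 1 organoids than in papillae and lower in CQ than in LPM: SDHC, SDHD, ATP5E, ATP5F1, ATP5O, ATP5S, COX6C, COX7C, NDUFA2, NDUFA7, NDUFB2, NDUFC2, NDUFS4 and NDUFS5. NDUFS6, NDUFV1 and NDUFV3 went the opposite way, ATP5SL and NDUFB10 were higher in both, and COX7A1 was lower in both. After the length correction in both comparisons the share was 21 of 24 (87.5%), against 58.9% of all genes. Of these 21, 10 were higher in passage 1 organoids and lower in CQ, and 11 went the opposite way. The excess of the first direction was thus absent after the correction, and COX6C, COX7C, NDUFB2 and NDUFS5 were no longer among the opposite calls. These counts are a description with no test, and levels were scaled separately in the 2 comparisons.

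Around the subunits, CQ was accompanied by lower mitochondrially encoded levels: 0 of 13 genes were higher (1 at an unadjusted p under 0.05, and 0 in DESeq2 and limma-voom) and 9 lower in edgeR, with a median log2 fold change of -0.69. CYTB fell by 0.90 and ND6 by 0.94 on the log2 scale, and the list summed to 35460 to 37395 CPM in LPM and 22826 to 28165 CPM in CQ, without overlap. Of 18 citric acid cycle genes 10 were higher, with IDH3B at log2 1.18 and citrate synthase CS at 1.00, and 3 lower, with pyruvate carboxylase PC at -2.73. Of 11 lactate and pyruvate genes 2 were higher, with the lactate transporter SLC16A1 at 1.82, and 6 lower, with LDHA at -1.94 and LDHB at -1.85. Assembly factors had 10 of 33 higher, such as TTC19 of complex III (1.05), and 4 lower, such as NUBPL, which supplies iron-sulfur centres to complex I (-2.00). Electron carriers and exchangers had 5 of 22 higher, with CYCS, cytochrome c itself, at 1.11 and the phosphate carrier SLC25A3 at 0.78, and 6 lower, with NDUFA4L2, a hypoxia-responsive relative of NDUFA4, at -4.54 and HIGD1A at -1.62. Biogenesis regulators had 7 of 16 higher, with the coactivators PPARGC1B at 1.94 and PPRC1 at 1.40, and 1 lower, MTERF1, which terminates mitochondrial transcription, at -1.13. Fatty acid oxidation had 4 of 12 higher, such as ACADM (1.53), and 5 lower, such as CPT1A (-1.21), and the mitochondrial ribosomal proteins had 17 of 77 higher and 14 lower (median log2 0.01). Over all genes tested in this comparison 23.1% were called higher and 24.8% lower. The higher shares of the mitochondrial ribosomal proteins (22.1%) and of the electron carriers and exchangers (22.7%) were near that of all genes.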

How the data were processed

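Counts per gene from 22 bulk poly(A) RNA-seq libraries were used as deposited by the authors, with no normalization. The submitters' processing notes name STAR 2.7.10b, FastQC 0.11.9, DESeq2, MultiQC 1.14 and build Sscrofa11.1; per the file headers, counting was done with featureCounts 2.0.3, or 2.0.6 for the CQ experiment, whose annotation holds 29850 genes. Strand was ignored and multi-mapping pairs were left out, per the file headers. An entry without a gene name (0.326% to 0.477% of the CQ experiment's counts) was left out. Each comparison was fitted on its own groups over the whole table with edgeR 4.0.16 (R 4.3.3): filterByExpr, TMM scaling, quasi-likelihood F test, Benjamini-Hochberg adjustment, called at an adjusted p under 0.05. Alternatives were RLE size factors, library size alone, DESeq2 1.42.0, limma-voom (limma 3.58.1), no filter, the replicate block, a loess correction for exonic length (span 0.5), both together, and each library left out; the script was tested on simulated data. CPM used TMM-scaled library sizes within a comparison, and the isoform ratio a pseudocount of 0.5.

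The labels give papilla and organoid libraries of one pig the same number, so these pair; same-pig deviations from the group means correlated by 0.0270 to 0.115. No 2 libraries of a group agreed within sampling noise (chi-square of their counts 2.66 to 314 times its degrees of freedom). In each complex the most abundant gene and the called genes with the largest and smallest fold change per direction were named, with SDHA to SDHD and isoform genes, up to 2 called genes a direction from each other list (the most abundant where none was called), and genes not tested; further genes were named after their values were seen, and 1 gene is not reported here. The members and lists were chosen with earlier results of these data known. Of the 69 members, 18 share exonic bases with another gene, and near-identical copies can lose reads. The COX8H interval and floors cover counting error only.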

Additional observations from a re-analysis of the deposited data

Results flagged for a closer look

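In groups of 5 libraries a value was singled out where its gap to the next value exceeded 0.71 of the whole range (Dixon's criterion). This was applied to 60 groups of values, and chance singles out about 1 in 20. Papilla 3 was singled out 5 times, each as the highest papilla. COX7A1 reached 57.6 CPM there (next papilla 33.7 CPM), COX8H 48.1 CPM (next 13.3 CPM) and NDUFV3 60.3 CPM (next 54.0 CPM). The complex I sum was 1961 CPM (next 1586 CPM) and the complex IV sum 799 CPM (next 575 CPM). The same library had the highest summed skeletal muscle markers, at 13459 CPM against 472 to 4702 CPM in the other papillae, and the highest summed mitochondrially encoded level, at 72423 CPM against 24381 to 48500 CPM. Their part in the subunit levels was not tested. The remaining value was COX8H in organoid 3, at 0.176 CPM where the other passage 1 organoids had 0.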

How the results depend on the processing

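For passage 1 organoids against papillae, 21 of 35 calls were made in the main analysis and all 18 alternatives. Members higher numbered 44 with library size alone and 18 with length correction and replicate block; members lower numbered 3 with library size alone, 3 with no filter and 15 with the length correction, with or without the block. The median log2 fold change was 0.59 with library size alone, 0.029 with the length correction and 0.026 with the block added to it. Leaving out single libraries gave 23 to 35 higher, 3 to 8 lower, medians of 0.24 to 0.39 and COX7A1/COX7A2 differences of -2.13 to -1.80. NDUFB10 reversed to -0.024 with the length correction and -0.025 with the block added. The block with each pig's number gave 25 higher and 4 lower. Pairing by pig, added after seeing the data, left the COX7A1/COX7A2 difference at -2.01 with an exact permutation p of 0.0625, the smallest possible. The block ended the calls of NDUFV1, NDUFS7, NDUFB10, COX5B, NDUFS5 and ATP5G3.

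For removal of FGF10, 0 members were lower with either length correction, with medians of -0.0046 and, with the block, -0.0064; library size alone gave -0.017. Single libraries left out gave 0 to 1 lower, 0 higher and medians of -0.064 to -0.018. For CQ, 24 members were higher with the length correction and 23 with the block added. Single libraries left out gave 4 to 24 higher, 7 to 19 lower and medians of -0.066 to 0.20. The numbers in these experiments share no source in the labels, and same-numbered deviations correlated by -0.114 to 0.108 (FGF10) and -0.0554 to 0.0380 (CQ). The replicate block gave 0 higher and 1 lower for FGF10 and 12 higher and 14 lower for CQ.

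Over all settings, the genes chosen by the naming rule lost 24, 6 and 56 calls in the 3 comparisons in turn and gained 8, 0 and 5. Over all members a single setting added up to 15 calls for passage 1 organoids, 1 for FGF10 (ATP5I, lower without LPM replicate 1, adjusted p 0.0245 in edgeR) and 9 for CQ. Counts of COX8H limit its organoid level. Ratios of the COX6A and COX4 isoforms and promoter motifs were not run.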
